A study of Mus musculus with 4 samples.

Results

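The 9 genes described here are the ligand genes Vegfa, Vegfb and Vegfc of the vascular endothelial growth factor (VEGF) family, its receptor genes Kdr and Flt1, and the endothelial marker genes Pecam1, Cdh5, Tek and Emcn. They were taken by name from a deposited table of 55228 genes, and all 9 were found. The RNA was total RNA of cells from rib cartilage, taken at embryonic day 17.5 from C57BL/6 mice. The libraries fall into 2 of wild-type (WT) genotype and 2 of Trim28 knockout (Trim28 KO) genotype, with no treatment named for either group. Trim28 encodes a corepressor that zinc finger proteins bring to DNA. How the knockout was made, in which cells it acts and whether the libraries of a genotype are separate embryos are not given in the sources used here, and so the spread that the p-values rest on may be technical.

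VEGF-A is secreted by many cells short of oxygen and by hypertrophic chondrocytes, the enlarged cells at the end of the cartilage growth zone, and it draws blood vessels into cartilage that is about to become bone. KDR (VEGFR2) is the main signalling receptor on endothelial cells, and FLT1 (VEGFR1) binds VEGF-A and VEGF-B tightly and, also as a soluble form, holds ligand away from KDR. Cartilage itself has no vessels, whereas the perichondrium around it and the bone beside it do, and all 4 endothelial markers are known from vessels in those tissues.

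Deposited counts summed to between 18616896 and 20082123 per library, so that 3 counts corresponded to 0.151 to 0.159 CPM (a gene's reads relative to the library total, scaled with trimmed mean of M-values, TMM, factors of 0.939 to 1.04). The Trim28 transcript itself was at 225 and 186 CPM in the WT pair against 51.1 and 54.5 CPM in the Trim28 KO pair, which matched the labels. Among the listed markers of other cells, 9 chondrocyte genes summed to between 81680 and 110800 CPM, with a median log2 fold change of -0.09 between genotypes. The 29 endothelial markers summed to between 1004 and 1225 CPM. Such sums are over different genes and are not scaled by length, so they do not give the relative amounts of cell types. Macrophage markers were higher in Trim28 KO (summed CPM of 141 and 146 in WT, 461 and 279.6 in Trim28 KO). Red cell markers (255 and 349 against 75.6 and 81.8) and osteoclast markers (1020 and 848 against 227 and 226) were lower. In the WT osteoclast sums, 684 and 515.5 CPM came from Mmp9 alone, which is also in the hypertrophic cartilage list below. Skeletal muscle markers were highest in Trim28 KO 1, at 1165 CPM against 451 to 787 in the other libraries. The part of these differences in the results on the 9 genes was not tested. In such bulk samples fewer cells of a type and less RNA per cell cannot be told apart.

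Of the 9 genes, Vegfb rose in Trim28 KO and the other 8 did not pass the test (edgeR's quasi-likelihood test, called at an adjusted p under 0.05). Of all 16639 genes tested, 17.4% were called, 8.64% higher and 8.77% lower, so 1 of 9 is near the background share. Before adjustment, Vegfa and Tek were also under 0.05 in the edgeR fit, on the lower side, and neither DESeq2 nor limma-voom called any of the 9 lower. The fitted log2 fold change was below 0 for 8 of the 9, with a median of -0.14 beside -0.02 over all genes tested. For those 8 the 95% interval of the log2 fold change lay within 1 in either direction, that is, within a 2-fold change. The genotypes did not overlap in 6 of the 9, with Trim28 KO lower in 5 and higher in 1. Over all tested genes the share without overlap was 58.0%.

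**Figure D1:**
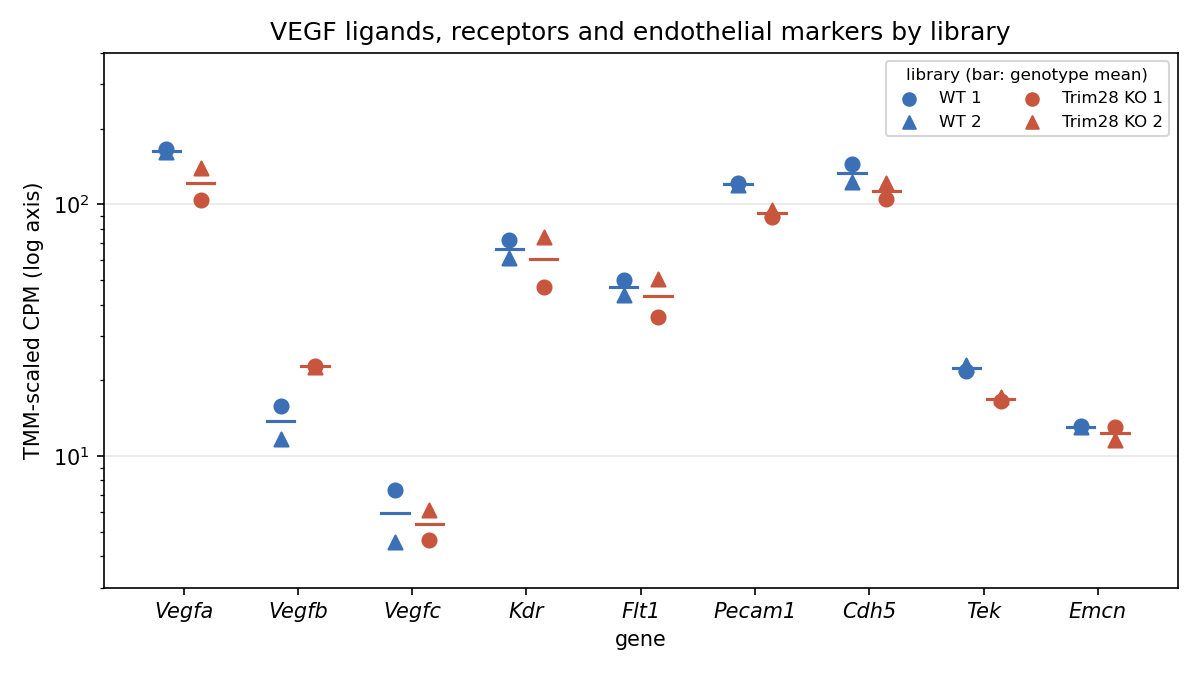
TMM-scaled CPM (log axis) of the 9 genes in each of the 4 libraries, circles for replicate 1 and triangles for replicate 2, with a bar at each genotype's mean of 2 libraries. Vegfb is higher in both Trim28 KO libraries (22.9 and 22.7 CPM) than in WT (15.8 and 11.7 CPM), whereas Kdr, Flt1 and Vegfc overlap between genotypes.

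Vegfa, on chromosome 17 from 46016993 to 46032369 on the minus strand of GRCm38, had 166 CPM in WT 1 and 162 in WT 2, against 104 CPM in Trim28 KO 1 and 139 in Trim28 KO 2, from 2016 to 3208 reads. Both Trim28 KO libraries lay below both WT libraries, and the Trim28 KO libraries differed from each other by more than the WT libraries did. The fitted log2 fold change was -0.43 ± 0.20 (SE, n = 2 per genotype), with a 95% interval of -0.85 to -0.01 (adjusted p = 0.152), so the difference was not called. It was -0.23 when Trim28 KO 1 was left out and -0.65 when Trim28 KO 2 was, and none of the 12 alternatives called it.

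Vegfb encodes a ligand that binds FLT1 but not KDR and is abundant in muscle and other tissues with high fat use. It lies on chromosome 19 from 6982473 to 6987651 on the minus strand. Its level was 15.8 CPM in WT 1 and 11.7 in WT 2, against 22.9 CPM in Trim28 KO 1 and 22.7 in Trim28 KO 2, from 232 to 452 reads. Both Trim28 KO libraries were above both WT libraries, and they lay closer together than the WT libraries. Vegfb rose 1.65-fold, from 13.8 ± 2.9 to 22.8 ± 0.1 CPM (SD, n = 2), with a log2 fold change of 0.73 ± 0.20 (SE, adjusted p = 0.0153 with edgeR). The call was lost without WT 2 (log2 fold change of 0.55, adjusted p = 0.119), without Trim28 KO 1 (0.73, adjusted p = 0.105) and without Trim28 KO 2 (0.74, adjusted p = 0.0878). Over all 12 alternatives the log2 fold change ran from 0.55 to 0.98 and the adjusted p from 0.00215 to 0.119. Summed muscle markers were 626 and 787 CPM in the WT pair against 1165 and 451 CPM in the Trim28 KO pair, and their part in the Vegfb result was not tested.

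Vegfc encodes the ligand of lymphatic growth that acts mainly through FLT4. This gene, whose locus on the plus strand of chromosome 8 spans 54077606 to 54187096, was the least abundant of the 9 in CPM, at 7.33 in WT 1 and 4.55 in WT 2, against 4.63 in Trim28 KO 1 and 6.12 in Trim28 KO 2, from 90 to 138 reads. The genotypes overlapped, and the WT libraries were the highest and the lowest of the 4. Its log2 fold change was -0.14 ± 0.28 with a 95% interval of -0.72 to 0.44, and the sign turned without WT 1 (0.26) and without Trim28 KO 1 (0.05).

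Sequences before the RefSeq starts of Vegfb, the only one of the 9 called, and of Vegfa and the receptors are shown. Marked is the hypoxia response core, ACGTG or GCGTG on either strand, which hypoxia-inducible factors (HIF) bind. It was chosen because more genes of the hypoxia and HIF target list rose than fell in these libraries. Each sequence is the 250 bases before the RefSeq start on GRCm38.p6, read 5′ to 3′ on the gene's own strand, with matches in capitals and overlapping matches counted separately. They cover chr17:46032378-46032627 for Vegfa at its upstream start and chr17:46025164-46025413 at the other start in the table, chr19:6987652-6987901 for Vegfb, chr5:75978456-75978705 for Kdr and chr5:147726012-147726261 for Flt1, all on the minus strand.
Vegfa, upstream start: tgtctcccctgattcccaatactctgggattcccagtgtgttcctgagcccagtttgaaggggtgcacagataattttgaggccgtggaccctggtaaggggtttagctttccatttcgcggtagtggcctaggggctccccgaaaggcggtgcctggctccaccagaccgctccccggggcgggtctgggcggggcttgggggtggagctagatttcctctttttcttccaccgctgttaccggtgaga
Vegfa, other start: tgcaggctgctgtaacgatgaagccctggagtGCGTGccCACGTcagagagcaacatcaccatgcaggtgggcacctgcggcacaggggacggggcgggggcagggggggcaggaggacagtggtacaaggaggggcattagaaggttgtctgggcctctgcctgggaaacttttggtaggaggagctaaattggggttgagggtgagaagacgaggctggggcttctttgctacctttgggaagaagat
Vegfb: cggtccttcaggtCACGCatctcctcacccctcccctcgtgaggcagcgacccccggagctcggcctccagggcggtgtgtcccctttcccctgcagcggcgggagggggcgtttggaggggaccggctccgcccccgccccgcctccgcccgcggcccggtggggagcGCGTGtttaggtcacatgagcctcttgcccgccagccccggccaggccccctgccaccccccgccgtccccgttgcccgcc
Kdr: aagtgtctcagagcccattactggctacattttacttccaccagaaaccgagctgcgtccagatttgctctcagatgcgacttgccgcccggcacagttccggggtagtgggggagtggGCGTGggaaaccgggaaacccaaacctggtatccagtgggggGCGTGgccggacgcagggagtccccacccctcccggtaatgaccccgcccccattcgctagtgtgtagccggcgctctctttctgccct
Flt1: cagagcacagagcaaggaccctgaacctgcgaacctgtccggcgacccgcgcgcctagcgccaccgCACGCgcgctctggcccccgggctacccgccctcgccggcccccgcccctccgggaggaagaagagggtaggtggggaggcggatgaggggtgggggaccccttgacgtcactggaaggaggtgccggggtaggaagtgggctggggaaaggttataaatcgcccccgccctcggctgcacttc

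Vegfb held 2 matches, which began 237 and 81 bases before its start. Vegfa held 0 in the window of its upstream start and 2 in that of its other start, which began 218 and 211 bases before it. The window of that other start lies inside the gene, which spans 46016993 to 46032369. Its 2 matches are therefore in sequence within Vegfa and need not be promoter sequence. Kdr held 2, as many as Vegfb, and Flt1 held 1, and neither receptor gene was called. The part of these matches in the Vegfb result was not tested. In the windows not shown, Emcn held 1 match, and Vegfc and Tek held 0. Of 32851 windows of the same length in the RefSeq table, 38.6% held at least 1 match. These are matches of letters only, sites beyond the 250 bases were not searched, and no binding was measured.

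Kdr, on chromosome 5 from 75932827 to 75978458 on the minus strand, had 72.0 CPM in WT 1 and 61.4 in WT 2, against 47.1 CPM in Trim28 KO 1 and 73.9 in Trim28 KO 2. The highest and the lowest of the 4 libraries were both Trim28 KO, so the genotypes overlapped fully. The log2 fold change was -0.14 ± 0.21, with a 95% interval of -0.58 to 0.30 (adjusted p = 0.711). Flt1, on the same chromosome from 147561604 to 147726011 on the minus strand, followed the same order of libraries at 50.02 and 43.6 CPM in WT and 35.6 and 50.7 CPM in Trim28 KO. Its log2 fold change was -0.12 ± 0.20 with a 95% interval of -0.53 to 0.29. Both receptors changed sign with Trim28 KO 1 left out, to 0.16 for Kdr and 0.12 for Flt1, and were called in none of the 12 alternatives. Counts were summed by gene, so the soluble and the membrane form of FLT1 were not told apart.

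The ratio of Flt1 to Kdr, the decoy to the signalling receptor, varied little between libraries. As log2 of the CPM ratio it was -0.53 and -0.49 in the WT pair against -0.41 and -0.54 in the Trim28 KO pair. Against Cdh5, Kdr stood at -1 in both WT libraries, -1.15 in Trim28 KO 1 and -0.72 in Trim28 KO 2, so the Trim28 KO libraries lay on either side of WT. These ratios are given with no test.

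Among the endothelial markers, Cdh5, which encodes the junction protein VE-cadherin, lies on the plus strand of chromosome 8, between 104101625 and 104144511. It had 144 CPM in WT 1 and 122.4 in WT 2, against 104.8 CPM in Trim28 KO 1 and 121.6 in Trim28 KO 2. WT 2 and Trim28 KO 2 were within 1 CPM of each other, and the log2 fold change of -0.24 ± 0.20 (95% interval of -0.64 to 0.17, adjusted p = 0.461) was not called. Pecam1 encodes CD31, an adhesion molecule of endothelium that platelets and leukocytes also carry. It lies on chromosome 11 from 106654217 to 106750628 on the minus strand and stood at 122.0 and 119.1 CPM in WT and 89.5 and 95.3 CPM in Trim28 KO. Here the libraries of a genotype lay close together and the genotypes were apart, with a log2 fold change of -0.38 ± 0.19 (95% interval of -0.78 to 0.01, adjusted p = 0.180) that was not called.

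Tek encodes TIE2, the receptor for angiopoietins that keeps vessels quiescent, and lies on the plus strand of chromosome 4, between 94739289 and 94874976. It was at 21.7 CPM in WT 1 and 22.98 in WT 2, against 16.6 CPM in Trim28 KO 1 and 17.1 in Trim28 KO 2. As for Pecam1, the libraries of a genotype nearly coincided and the Trim28 KO pair was lower, with a log2 fold change of -0.41 ± 0.19 (95% interval of -0.81 to -0.01, adjusted p = 0.156), again not called. Under the 12 alternatives it ran from -0.44 to -0.34 and was never called. Emcn encodes endomucin, a sialomucin of capillary and venous endothelium that marks the vessels next to growing bone. This gene, on the plus strand of chromosome 3 between 137341067 and 137432185, had the smallest fold change of the 9 at 13.12, 13.08, 13.08 and 11.5 CPM in the order WT 1, WT 2, Trim28 KO 1 and Trim28 KO 2. Its genotypes counted as not overlapping only beyond the digits shown, and the log2 fold change was -0.09 ± 0.21 (95% interval of -0.52 to 0.34).

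Levels of different genes were compared as CPM per kb of exon, which uses the deposited gene lengths of 1605 to 13504 bases. In WT the order from the highest mean was Vegfa (38.2), Cdh5 (31.7), Pecam1 (19.4), Vegfb (8.58), Kdr (7.39), Tek (4.74), Flt1 (3.47), Vegfc (2.42) and Emcn (2.42). Vegfb and Kdr overlapped between libraries, as did Vegfc and Emcn, so these neighbours are not ordered beyond their spread. In Trim28 KO the order of means began with Vegfa (28.3), Cdh5 (26.9), Pecam1 (14.8), Vegfb (14.2) and Kdr (6.70). There Vegfa and Cdh5 overlapped, and Vegfb, at 14.2 and 14.1, lay just under Pecam1, at 14.4 and 15.3.

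**Figure D2:**
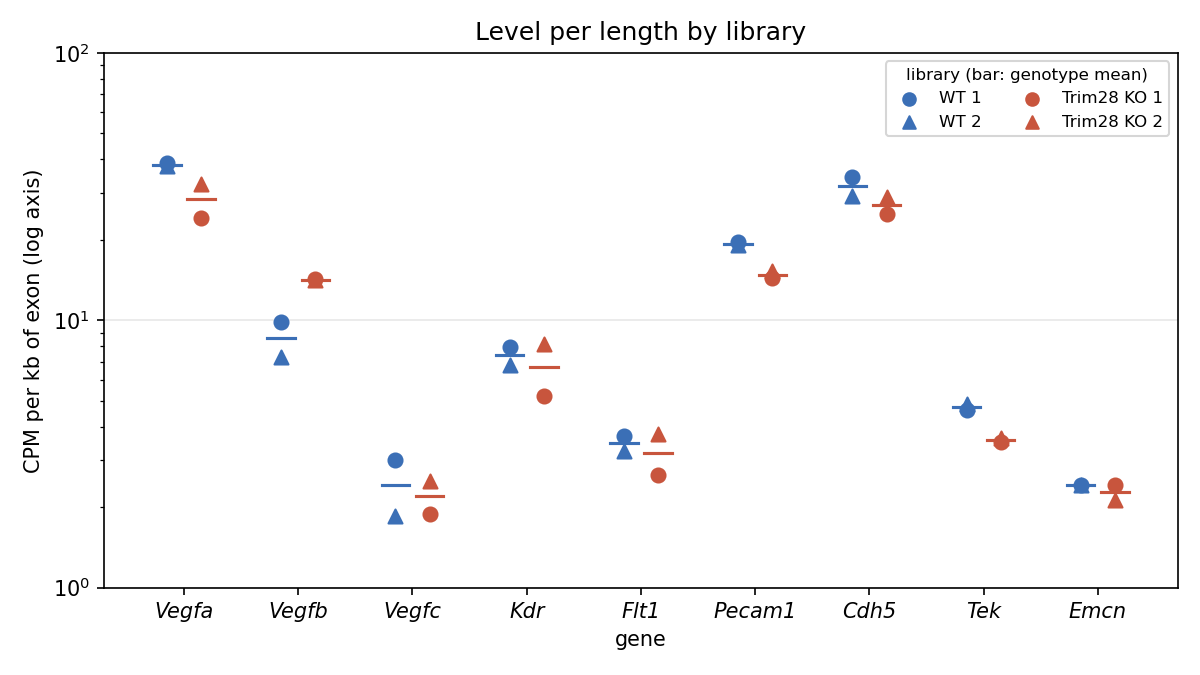
CPM per kb of exon (log axis) of the 9 genes in each library, with a bar at each genotype's mean of 2 libraries. Vegfa and Cdh5 have the highest means in both genotypes (38.2 and 31.7 in WT, 28.3 and 26.9 in Trim28 KO).

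The make-up of the ligand pool differed between libraries of the 2 genotypes. Vegfa made up 75.1% and 80.5% of the summed CPM per kb of the 3 ligands in the WT pair and 60.0% and 66.1% in the Trim28 KO pair. Vegfb made up 19.1% and 15.5% in WT and 35.3% and 28.8% in Trim28 KO, and Vegfc between 3.95% and 5.81% in any library. As log2 of the CPM ratio, Vegfb against Vegfa was -3.39 and -3.79 in the WT pair against -2.18 and -2.62 in the Trim28 KO pair. The genotypes did not overlap in this ratio, and it was not tested.

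**Figure D3:**
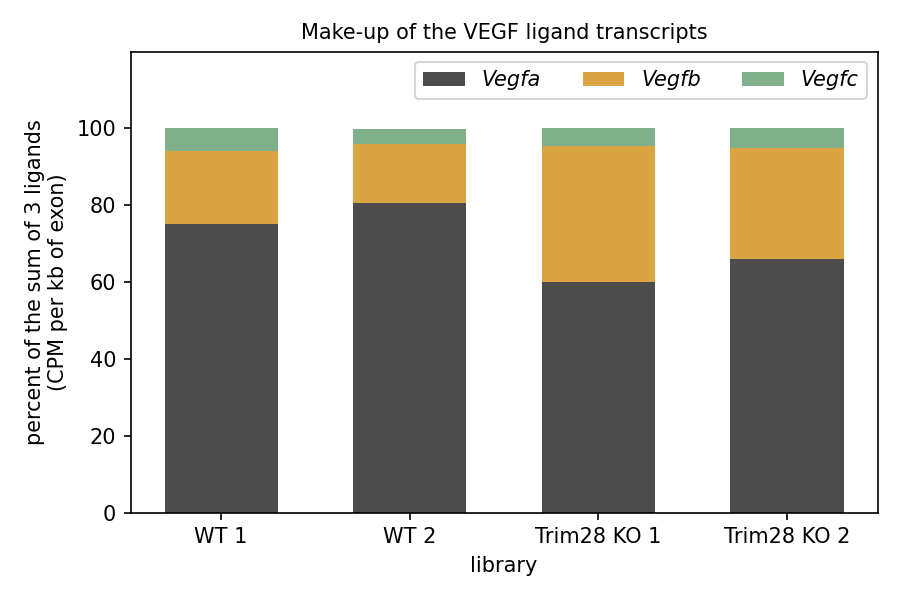
Stacked bars of the percent that Vegfa, Vegfb and Vegfc make up of their summed CPM per kb of exon in each library. Vegfb takes 35.3% and 28.8% in the Trim28 KO libraries against 19.1% and 15.5% in WT.

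Of the 11 other genes of the VEGF and angiopoietin family, 1 rose, 4 fell and 6 were not called, with a median log2 fold change of -0.62 beside -0.02 over all genes tested. With the 6 of the 9 genes that belong to the family, 2 of 17 rose and 4 fell, beside 17.4% called among all genes, and the median was -0.41. Without Trim28 KO 1 the counts over the 17 were 1 higher and 1 lower, without WT 2 they were 1 and 2, and without Trim28 KO 2 they were 1 and 3. The second rise was in Vegfd, which encodes a further ligand of FLT4 and lies on the X chromosome. Vegfd had 12 and 19 reads in WT and 82 and 75 in Trim28 KO, which is 0.637 and 0.960 CPM against 4.22 and 3.76 CPM. Both Trim28 KO libraries were far above both WT libraries (log2 fold change of 2.31 ± 0.39, adjusted p = 1.44e-04), and it was called in each of the 11 alternatives in which it was tested.

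Placental growth factor, encoded by Pgf, is a ligand of FLT1 like VEGF-B, and went from 5.20 and 4.34 CPM in WT to 2.11 and 2.96 in Trim28 KO. It fell by 0.91 on the log2 scale (SE 0.31, adjusted p = 0.0463), a call that only 4 of 11 alternatives kept. It was lost whichever library was left out (adjusted p between 0.0613 and 0.315), with library size alone (0.0662) and with DESeq2 (0.184), among others. Nrp1 encodes neuropilin 1, a co-receptor that presents VEGF-A to KDR and also binds semaphorins. It fell from 73.8 and 84.5 CPM to 43.6 and 59.0 CPM (log2 fold change of -0.62 ± 0.20, adjusted p = 0.0310), but was not called without WT 2 (adjusted p = 0.112) or without Trim28 KO 1 (0.369, log2 fold change of -0.42). Nrp2, the neuropilin of lymphatic endothelium that other cells also carry, missed the threshold (adjusted p = 0.0616) at a log2 fold change of -0.63 ± 0.23, though 6 of 12 alternatives called it. Flt4, the receptor of VEGF-C and VEGF-D, had a log2 fold change of -0.33 ± 0.23 (adjusted p = 0.349).

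In the angiopoietin system around Tek, Angpt2, the ligand that loosens vessels and can block TIE2, fell from 5.20 and 5.91 CPM to 2.99 and 2.36 CPM. Its log2 fold change was -1.06 ± 0.30 (adjusted p = 0.0151). The call was lost with DESeq2 (adjusted p = 0.0733) and without WT 2 (0.0892), Trim28 KO 1 (0.0513) or Trim28 KO 2 (0.134). Angptl4, a secreted lipase inhibitor of the angiopoietin-like family, went from 22.7 and 21.3 CPM to 11.2 and 10.3 CPM and fell with each of the 12 alternatives (-1.03 ± 0.20, adjusted p = 6.97e-04). The activating ligand Angpt1 (-0.48 ± 0.23), the receptor partner Tie1 (-0.32 ± 0.21), the phosphatase gene Ptprb, whose product restrains TIE2 (-0.21 ± 0.19), and Angpt4, with 8 to 24 reads (-1.29 ± 0.50), were not called.

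**Figure D4:**
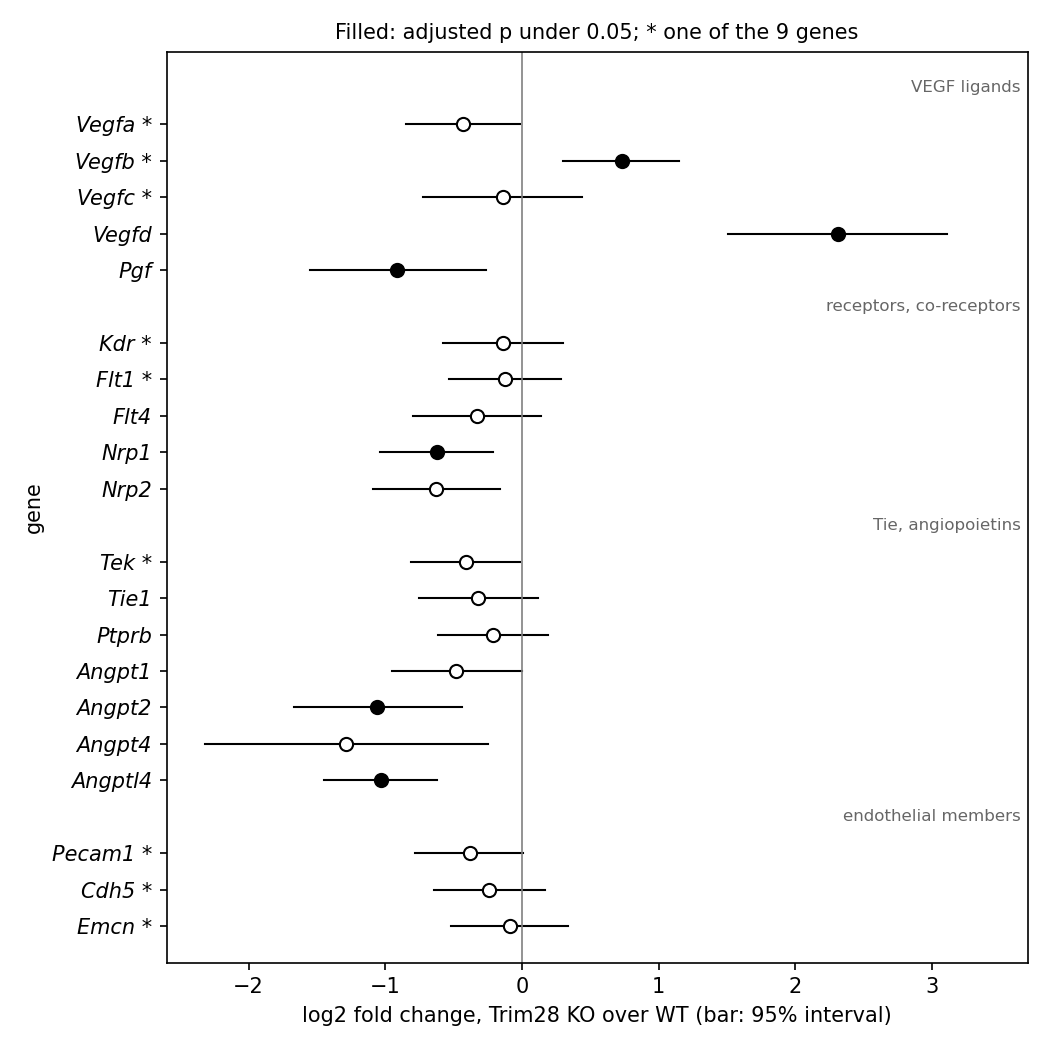
Log2 fold changes of Trim28 KO over WT with 95% intervals for 20 genes of the VEGF and angiopoietin systems and endothelium, filled where the adjusted p was under 0.05 and with a star on the 9 genes. Vegfd (2.31) and Vegfb (0.73) lie to the right of 0, and of the receptors and co-receptors only Nrp1 (-0.62) was called. Kdr and Flt1 lie just below 0 and turn above it without Trim28 KO 1 (0.16 and 0.12).

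Few of the wider set of endothelial markers were called. Of 29 endothelial markers tested (Pecam1, Cdh5 and Emcn among them), 1 was called higher, 1 lower and 27 neither. Among all genes tested 17.4% were called. The median log2 fold change of the markers was -0.14, beside -0.02 over all genes tested, and 22 of the 29 were below 0. The 95% interval lay within a 2-fold change in either direction for 24 of the 29. Their summed level was 1225 and 1004 CPM in the WT pair against 1012 and 1076 CPM in the Trim28 KO pair, so the genotypes overlapped. The rise was in Clec14a, a lectin-like receptor of endothelial cells, at 35.5 and 31.4 CPM in WT and 78.7 and 66.6 CPM in Trim28 KO (log2 fold change of 1.12 ± 0.19, adjusted p = 1.66e-04). The fall was in Vwf, which encodes von Willebrand factor of endothelium and megakaryocytes, at 41.8 and 34.9 CPM in WT and 23.7 and 16.0 CPM in Trim28 KO (-0.95 ± 0.21, adjusted p = 0.00245). Leaving out Trim28 KO 2 ended this call (log2 fold change of -0.69, adjusted p = 0.0939). Without WT 2 the list had 4 falls, with Sox17 (-0.94), Plvap (-0.80) and Nos3 (-0.79) beside Vwf.

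Pecam1 is shared with blood cells, and those lists went different ways. Of 9 megakaryocyte and platelet genes only 4 could be tested, Gp1bb had 0 reads in all 4 libraries, and Pf4 rose (1.30, lost without Trim28 KO 1 at an adjusted p of 0.141) while Itgb3 fell (-1.74). Itgb3 had 54.2 and 73.4 CPM in WT, most of that list's summed 66.9 and 86.1 CPM. Whether the changes in Pf4 and Itgb3 came from platelets was not tested. Of 12 macrophage genes tested, 7 rose and none fell, beside 8.64% higher and 8.77% lower among all genes. Of 5 lymphatic genes tested, 1 fell, namely Prox1, the transcription factor that specifies lymphatic endothelium (-1.73 ± 0.38, adjusted p = 0.00246, and 0.0561 without Trim28 KO 2). Prox1 had 63 and 71 reads in WT and 25 and 16 in Trim28 KO, and Lyve1 was not called (-0.35).

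The background share of calls was 8.64% higher and 8.77% lower over all genes tested. Of 11 genes of tip cells and the response to VEGF, 1 fell and none rose (median of -0.18). The gene that fell was Esm1, which encodes a secreted proteoglycan of tip cells induced by VEGF-A, which went from 64 and 72 reads in WT to 15 and 18 in Trim28 KO (log2 fold change of -2.06 ± 0.39, adjusted p = 4.88e-04). At about 3.40 and 3.64 CPM in WT it falls below the stricter filter of 5 CPM, where it was not tested. Without WT 2, Pdgfb (-0.62) fell too. The tip cell genes Dll4 (-0.26) and Apln (-0.27) were not called. Of 10 pericyte and smooth muscle genes tested, 3 fell (Myh11, -1.03, Notch3, -0.86, and Rgs5, -0.73) and 2 rose (Mcam, 0.70, and Cspg4, 0.66). Pericytes sheath small vessels, and Mcam and Cspg4 are also expressed by other mesenchymal cells. Each of these 5 calls was lost without at least 1 library, Trim28 KO 1 for Notch3 (adjusted p = 0.154) and Rgs5 (0.205), WT 1 for Notch3 (0.0597) and Mcam (0.0665), WT 2 for Cspg4 (0.187), and Trim28 KO 2 for Myh11 (0.0719), Mcam (0.154) and Cspg4 (0.371).

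Genes around the known sources of VEGF-A went both ways. Beside them, 8.64% of all genes tested were called higher and 8.77% lower, with a median of -0.02. Of 19 genes of the hypoxia pathway and HIF targets, 7 rose and 1 fell, with a median of 0.29. Vegfa, itself a textbook HIF target, is not in this list and was not called (log2 fold change of -0.43). The part of the hypoxia pathway in the Vegfa values was not tested. Pfkp (1.24 ± 0.21), Egln3 (1.01 ± 0.19), the glucose transporter gene Slc2a1 (adjusted p = 0.00133), Ero1l (0.83 ± 0.19) and Car9 (0.83 ± 0.20) rose, and Car12 fell (-1.73 ± 0.20). With Trim28 KO 1 left out Car9 missed the threshold (adjusted p = 0.0558). Of the prolyl hydroxylase genes, whose products mark HIF for decay in the presence of oxygen, Egln3 and Egln1 (0.75 ± 0.21, adjusted p = 0.0156) rose and Egln2 (-0.02 ± 0.19) was not called. The Egln1 call was lost without WT 2 (adjusted p = 0.0746) and without Trim28 KO 2 (0.222). The HIF subunit genes Hif1a (0.08 ± 0.19) and Epas1 (-0.32 ± 0.19), and Vhl (0.20 ± 0.18), whose product binds the marked HIF, were not called. Of 11 genes of hypertrophic cartilage and its vascular invasion, the other known source of VEGF-A, 9 fell and none rose, with a median of -1.22. Mmp9, a protease of invading cells, and Mmp13, a collagenase of late hypertrophic chondrocytes, fell by 3.56 and 2.58 on the log2 scale, whereas Col10a1 (-0.98) and Ihh (-0.98) fell less and were not called without Trim28 KO 1 (adjusted p = 0.114 and 0.190). Without Trim28 KO 1 the list had 6 falls, and without WT 2 it had a rise in Mef2c (0.84).

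Secreted inhibitors of vessel growth also moved in both directions. Calls over all genes tested were 8.64% higher and 8.77% lower, with a median of -0.02. Of 12 such genes, 6 fell and 2 rose, with a median of -0.55, and without Trim28 KO 1 the count was 2 falls and 2 rises. Sema3e, a semaphorin that repels endothelial cells (-1.66 ± 0.26), Tnmd (-0.98 ± 0.20), Cnmd, the chondromodulin of avascular cartilage (-0.99 ± 0.24, adjusted p = 0.0591 without Trim28 KO 1), and Col18a1, the source of endostatin (-0.86 ± 0.21), fell. Timp3 (0.95 ± 0.20) and Adamts1 (0.81 ± 0.20) rose. Col18a1 was not called without WT 1 (adjusted p = 0.110) or Trim28 KO 1 (0.119), nor Timp3 without Trim28 KO 2 (0.0590).

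**Figure D5:**
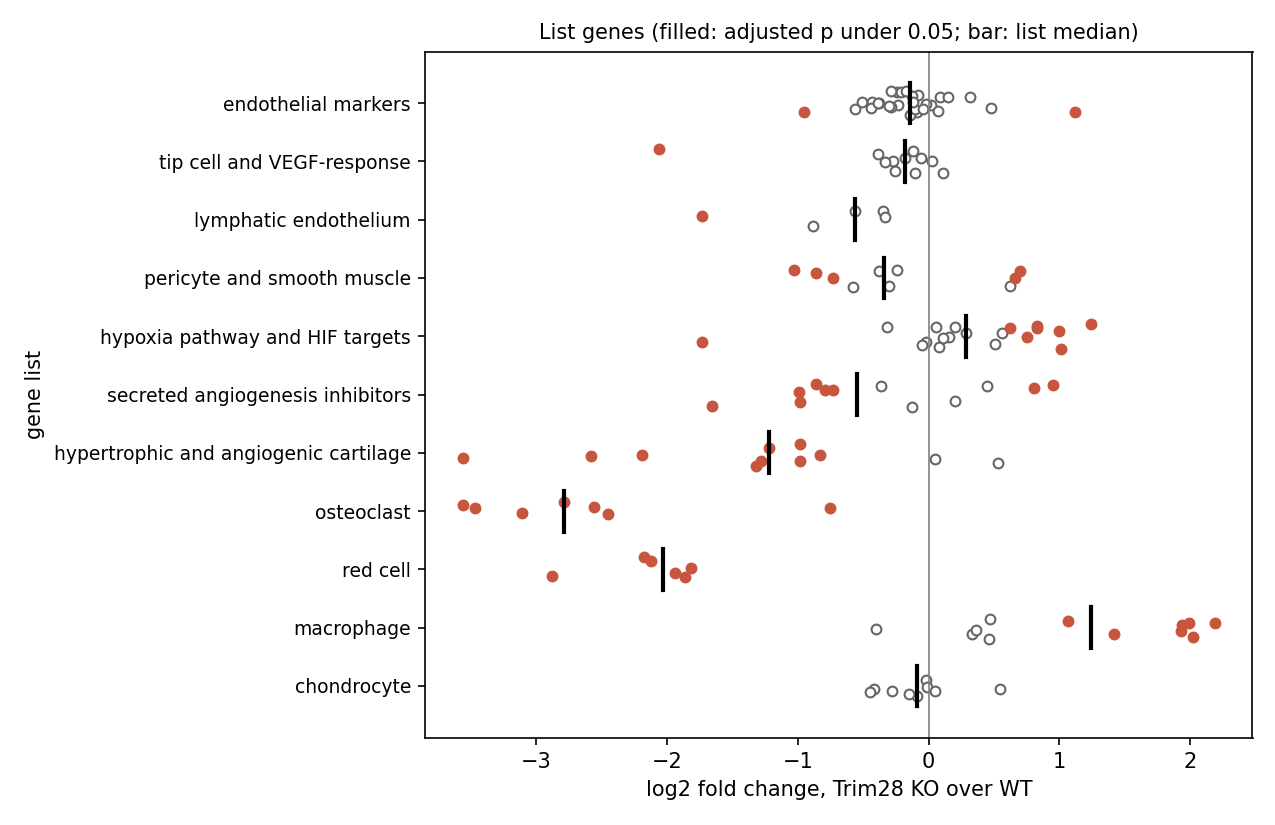
Log2 fold change of Trim28 KO over WT for each tested gene of 11 lists, filled where the adjusted p was under 0.05, with a bar at each list's median. Endothelial markers have a median of -0.14, with 22 of 29 below 0. The hypertrophic cartilage list (-1.22), the osteoclast list (-2.79) and the red cell list (-2.03) lie to the left and the macrophage list (1.24) to the right. Mmp9 is drawn in both the hypertrophic cartilage and the osteoclast list.

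The genes nearest to Cdh5 and Vegfa in pattern were sought among 11613 other genes whose mean was 5 CPM or more, by the root mean square difference of centred log2 (CPM + 1) over the 4 libraries. Nearest to Cdh5 were Scarf1, Sh3rf1, Cep63, Esam, an adhesion molecule of endothelium, and Fut11, at 0.013 to 0.020. The endothelial genes among the 9 ranked far lower, with Pecam1 at rank 758, Flt1 at 806 and Kdr at 1864. Nearest to Vegfa were Amotl1, Bhlhe40, Ldlrad4, Notch2 and Pcdh18, at 0.0117 to 0.0283. Vegfb was at rank 10667 from Vegfa and 10416 from Cdh5, near the far end of the list. With 4 libraries many genes share such a pattern, and the ranks are a description.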

How the data were processed

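The authors deposited raw counts per gene, which per the file headers are fragments of paired-end reads over exons, assigned by featureCounts 1.6.4 to the gene names of GENCODE M23 (mm10), with no option set for strand or multi-mapping reads. The aligner is not given in the sources used here. Gene lengths came from the same deposited table. In GENCODE M21 (GRCm38, the same assembly) each of the 9 genes had the deposited length and shared 0 exon bases with another gene.

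Genes passing edgeR's filterByExpr (16639, all 9 genes among them) were fitted with TMM factors and edgeR's robust quasi-likelihood test on genotype (edgeR 4.0.16, limma 3.58.1, DESeq2 1.42.0, R 4.3.3), with Benjamini-Hochberg adjustment over all genes tested. SE is the log2 fold change over the square root of F, and 95% intervals use the fit's degrees of freedom. Libraries of a genotype differed by more than counting noise (chi-square per degree of freedom of 30.6 in WT and 24.6 in Trim28 KO). This cannot tell separate embryos from separate preparations of the same material. The steps were tested on simulated data.

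The genes and lists were chosen with earlier results of these data known. The naming rule took the 9 genes, up to 6 called genes per list by p-value, 18 further genes fixed by name, and the nearest patterns. Apart from Mmp9 and Myog, genes of the osteoclast, red cell, macrophage and muscle lists are given only by counts or sums. So are some called genes of other lists, a narrowing made after values were seen. Angpt4, Lyve1, Dll4, Apln, Sox17, Plvap, Nos3, Pdgfb, Egln1, Egln2, Mef2c, Vash1, Gp1bb and Bnip3 lie outside the rule and were chosen after their values were seen.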

Additional observations from a re-analysis of the deposited data

How the results depend on the processing

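Results were recomputed with the scaling factors of DESeq2 (RLE), library size alone, no filter, a stricter filter, DESeq2, limma-voom, a replicate block, leaving out each library, and leaving out muscle, red cell and macrophage genes. Recounting the hypoxia, hypertrophic cartilage, inhibitor, tip cell, pericyte and macrophage lists was chosen after seeing the data. With 1 library left out, a genotype has 1 library, assumed to vary like the other genotype. Then the genes called over the whole table ran from 702 to 1442 higher and from 572 to 1406 lower, the calls among the 9 genes from 0 to 1 higher, the log2 fold change of Vegfb from 0.55 to 0.98, endothelial falls from 0 to 4, and family calls from 1 to 2 higher and 1 to 3 lower. The cause of these shifts was not tested. With DESeq2, 946 genes were lower in all and 2 in the family. With the stricter filter the family had 1 rise, since Vegfd was not tested. Libraries of the same number did not deviate together (r = -0.08 over genes), so the numbers were not taken as pairs. With 2 libraries per genotype, both same-number pairs give this same value by construction. With the replicate block 1477 genes were higher and 1444 lower, and Vegfb had a log2 fold change of 0.74 (adjusted p = 0.00948). The block ended the calls of Pgf (adjusted p = 0.0652), Ihh (0.11), Vash1 (0.0659) and Myog (0.0651) and added Nrp2 (0.0375), Bnip3 (0.0405) and Mef2c (0.048), so that the hypertrophic cartilage list had 8 falls and 1 rise. None of the other 8 genes was called under any of the 12 alternatives. Vegfc, with 90 to 138 reads per library, is the gene of the 9 whose depth limits precision most.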
